A study of Arabidopsis thaliana with 30 samples.

Results

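Transcripts of 10 Arabidopsis thaliana genes that act in mitosis and in the cell division that follows it were measured in 7-day-old seedlings. They are the B-type cyclins CYCB1;1, CYCB1;2, CYCB1;3 and CYCB1;4, the B2 cyclin CYCB2;3, the B-type cyclin-dependent kinases CDKB1;1, CDKB2;1 and CDKB2;2, the cytokinesis syntaxin KNOLLE and the Aurora kinase AUR1. The genes were chosen by role, with earlier results of these data known, and found by locus identifier. They are 10 of the 38088 genes in the deposited table of messenger RNA sequencing. Values are FPKM, that is fragments counted per kilobase of a gene's transcript and scaled for library size. Libraries came from the mutants labelled ski2 dcl4 dcl2, ski2 dcl4, smxl6 smxl7 smxl8 and smxl4 smxl5 and from the wild type Col-0, each given 85 min at 44 °C (heat) or 0 min (control). Each of the 10 groups had 3 libraries. All seedlings were raised at 22 °C on agar under 16 h of light and 8 h of dark, and the heat was given to closed plates in a water bath. Whole seedlings hold few dividing cells among many that no longer divide. SMXL4 and SMXL5 act in phloem formation, SMXL6, SMXL7 and SMXL8 repress strigolactone responses, SKI2 is a helicase of cytoplasmic RNA decay, and DCL4 and DCL2 cut double-stranded RNA into small RNAs.

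B-type cyclins bind and activate cyclin-dependent kinases from late G2 into mitosis and are then destroyed through the anaphase-promoting complex. CDKB kinases are particular to plants and, unlike CDKA, are themselves made mainly from S phase or G2 into mitosis. KNOLLE fuses the vesicles that build the new cell plate, and AUR1 is a mitotic kinase at the spindle and the forming cell plate. Many genes of this phase share a promoter element, the M-specific activator, whose core AACGG is bound by MYB3R transcription factors. MYB3R4 is an activator of these genes in Arabidopsis, and MYB3R3 and MYB3R5 are repressors.

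Loci and coordinates are given here on the RefSeq annotation of TAIR10.1, and the build behind the deposited values is not given in the sources used here. CYCB1;1 is AT4G37490 (chr4:17621886-17624308, minus strand) and CYCB1;2 is AT5G06150 (chr5:1859279-1861703, minus strand). CYCB1;3 is AT3G11520 (chr3:3625286-3627273, minus strand), CYCB1;4 is AT2G26760 (chr2:11401118-11403433, plus strand) and CYCB2;3 is AT1G20610 (chr1:7134659-7137828, minus strand). CDKB1;1 is AT3G54180 (chr3:20059671-20061488, plus strand), CDKB2;1 is AT1G76540 (chr1:28720328-28722550, minus strand) and CDKB2;2 is AT1G20930 (chr1:7292389-7294746, minus strand). KNOLLE is AT1G08560 (chr1:2709525-2711000, minus strand) and AUR1 is AT4G32830 (chr4:15842443-15844865, plus strand).

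The 300 bases before each gene's RefSeq start were read on the gene's own strand and searched on both strands for AACGG and for the longer TCNAACGG, which contains it. AACGG lay in the promoters of 7 of the 10 genes, against 23.5% of 27561 promoters of that length, and in 2 or more copies in 4 of the 10, against 4.54%. TCNAACGG lay in 3 of the 10, all of them cyclins, against 2.44% of all promoters. The windows of CYCB1;4, CDKB1;1 and CDKB2;1 held neither, and those of CDKB2;2 and AUR1 held 1 AACGG each. The CDKB1;1 window overlaps the gene AT3G54170, and the CDKB2;1 window overlaps AT1G76550. A match is only a string of letters. The 4 promoters printed here, 5′ to 3′ with the motif in capitals, were picked by how their genes responded. CYCB1;1 (chr4:17624309-17624608, minus strand) holds 3 copies of AACGG and KNOLLE (chr1:2711001-2711300, minus strand) holds 1, and both genes were higher after heat in some genotypes. CYCB1;2 (chr5:1861704-1862003, minus strand) holds 4 copies, all within TCNAACGG, and was among the genes furthest below Col-0 in ski2 dcl4. That of the B2 cyclin (chr1:7137829-7138128, minus strand) holds 3 copies, 1 of them within TCNAACGG, and this gene was lower after heat in some genotypes. AUR1, with 1 AACGG, was as far below Col-0 in ski2 dcl4 at control as CYCB1;2, and CDKB2;1, with none, was also lower there. CYCB1;4 and CDKB1;1, with none, were higher after heat in smxl6 smxl7 smxl8. A link between motif copies and responses was not tested.
CYCB1;1: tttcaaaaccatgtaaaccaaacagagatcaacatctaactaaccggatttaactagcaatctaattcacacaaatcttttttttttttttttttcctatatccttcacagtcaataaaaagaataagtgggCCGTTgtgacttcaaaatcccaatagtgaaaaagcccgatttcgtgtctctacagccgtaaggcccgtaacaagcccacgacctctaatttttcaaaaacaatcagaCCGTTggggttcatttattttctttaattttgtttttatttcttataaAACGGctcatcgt
CYCB1;2: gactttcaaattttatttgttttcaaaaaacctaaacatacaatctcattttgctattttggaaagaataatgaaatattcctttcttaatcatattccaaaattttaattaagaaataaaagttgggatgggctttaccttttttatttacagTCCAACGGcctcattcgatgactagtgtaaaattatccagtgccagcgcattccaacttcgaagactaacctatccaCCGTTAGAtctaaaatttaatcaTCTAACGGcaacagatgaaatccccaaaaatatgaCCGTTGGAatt
CYCB2;3: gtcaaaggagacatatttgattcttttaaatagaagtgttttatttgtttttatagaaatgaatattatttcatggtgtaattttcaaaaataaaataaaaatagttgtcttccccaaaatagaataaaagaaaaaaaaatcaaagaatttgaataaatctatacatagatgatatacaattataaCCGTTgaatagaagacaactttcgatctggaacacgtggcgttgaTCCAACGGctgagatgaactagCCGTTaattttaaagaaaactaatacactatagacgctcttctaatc
KNOLLE: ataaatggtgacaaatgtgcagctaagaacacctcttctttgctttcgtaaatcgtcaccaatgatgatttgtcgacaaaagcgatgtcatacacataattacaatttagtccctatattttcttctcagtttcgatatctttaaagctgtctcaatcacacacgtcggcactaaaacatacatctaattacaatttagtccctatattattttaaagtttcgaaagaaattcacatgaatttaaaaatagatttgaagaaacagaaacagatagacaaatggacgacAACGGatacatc

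All 10 genes had values above 0 in all 30 libraries and passed the filter on low values, at least 1 FPKM in at least 3 libraries, together with 21531 genes in all. Estimated from the smallest steps in the values of rarely detected genes, 1 FPKM in 1 kb of transcript stood for about 14.3 to 21.5 reads, so that these genes rested on about 64.9 reads (the lowest library of the lowest gene) to 1480 reads (the highest library of KNOLLE). Summed FPKM ran from 932000 to 1100000 in the heat libraries and from 736000 to 904000 in the control libraries. In 6 libraries all 10 genes lay below their group means, and a pair of them stood furthest below. Replicate 2 of smxl6 smxl7 smxl8 control lay 0.48 below its group mean on the log2 scale, and replicate 3 of ski2 dcl4 heat lay 0.39 below, and results that rest on them are given with and without them. Each genotype name stands for the libraries so labelled. SMXL5 was at 15.0 FPKM in the libraries labelled smxl4 smxl5, against 4.57 FPKM in Col-0 at control, and SMXL4 was not lower there either. In smxl6 smxl7 smxl8 at control SMXL6 was at 3.13 FPKM, against 5.44 FPKM in Col-0. DCL4 was at 3.44 FPKM in ski2 dcl4, against 3.41 FPKM in Col-0 at control, and DCL2 at 3.25 FPKM in ski2 dcl4 dcl2, against 5.61 FPKM in Col-0. SKI2 was left out, since its name could not be matched.

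Parts of some of these genes are shared with neighbours or copies. Of the 50-base words of the KNOLLE transcript, 31.0% lie on the other strand of NPQ1, the violaxanthin de-epoxidase of leaf photoprotection, and 16.5% of those of AUR1 lie on the other strand of PFK6, a phosphofructokinase. The strand setting of the authors' counting is not given in the sources used here, so reads from these stretches cannot be told apart. CDKB2;2 shares 10.6% in this way with AT1G20925, which stayed at or below 0.031 FPKM in all libraries, and CDKB1;1 shares 1.65% with AT3G54190. CYCB1;2 has 11.8% of its words in common with CYCB1;5, at 0.244 to 0.999 FPKM, and CYCB2;3 has 17.3% in common with AT1G20590, at 0 to 1.78 FPKM.

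KNOLLE and CDKB2;1, one of the kinases needed to keep the shoot meristem ordered, had the highest levels of the 10 genes per length. KNOLLE averaged between 22.3 and 57.3 FPKM over the 10 groups, this kinase between 21.4 and 34.1 FPKM, CYCB1;2 between 12.8 and 26.6 FPKM and AUR1 between 11.3 and 23.0 FPKM. CDKB2;2 averaged between 7.99 and 14.2 FPKM, CYCB2;3 between 4.48 and 11.3 FPKM, CYCB1;4 between 5.95 and 10.8 FPKM, CDKB1;1 between 5.21 and 7.73 FPKM, CYCB1;1 between 4.39 and 9.40 FPKM and CYCB1;3 between 3.89 and 7.39 FPKM. In the order of the 10 groups by mean, ski2 dcl4 stood last for 9 of the 10 genes: its control group for 6 and its heat group for 3, and smxl6 smxl7 smxl8 control stood last for the CDKB1 kinase. The highest group was ski2 dcl4 dcl2 heat for 5 genes, Col-0 control for 2, smxl6 smxl7 smxl8 heat for 2 and ski2 dcl4 dcl2 control for 1. Most neighbours in these orders did not differ beyond their spread: in 74 of 90 neighbouring pairs the means differed by no more than the replicate spread, and in 84 the libraries overlapped.

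**Figure D1:**
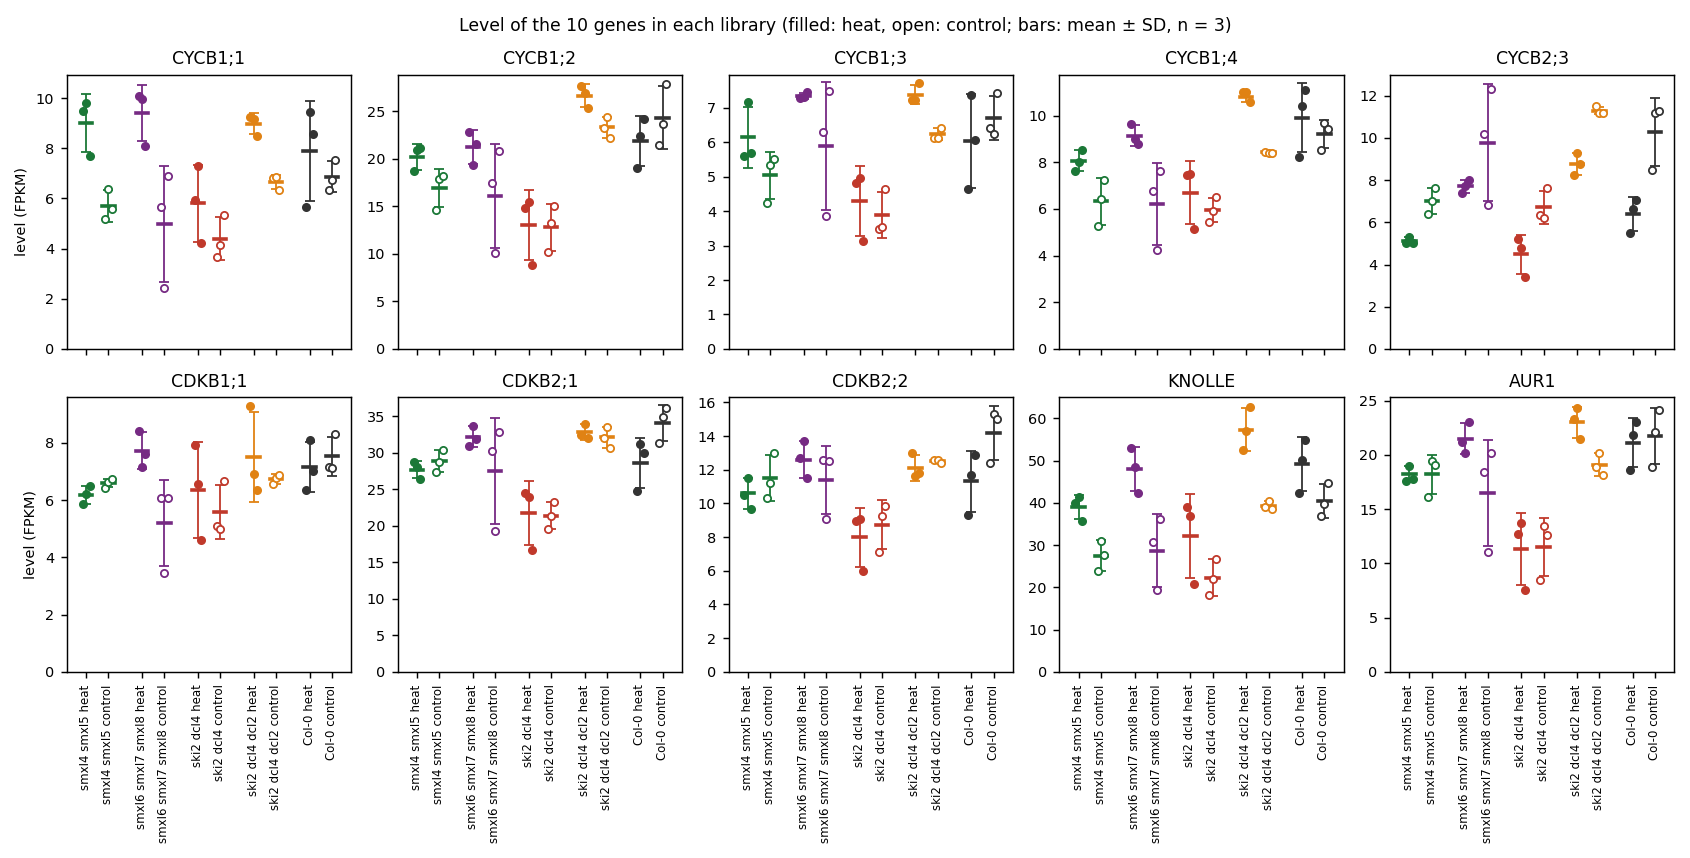
Level of each of the 10 genes in FPKM (vertical axes, linear from 0) in every library, by genotype and with heat beside control. Points are libraries and bars are group means. Means of ski2 dcl4 are the lowest for 9 of the 10 genes, for instance 22.3 FPKM for KNOLLE at control.

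At control, 8 of the 10 genes were lower in ski2 dcl4 than in Col-0, against 17.1% of all genes tested. Tests are limma's on log2(FPKM + 1), with adjustment over all 21531 genes, and log2 differences are on that scale. In all 10 genes the 3 ski2 dcl4 libraries lay below the 3 Col-0 libraries, which was so for 24.4% of all genes. Differences ran from −0.88 to −0.38, with a median of −0.65, and the median over all genes was 0. In these whole seedlings, fewer dividing cells and less RNA per dividing cell cannot be told apart.

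CYCB1;2, the B1 cyclin with the highest level, was at 10.2, 13.2 and 15.0 FPKM in ski2 dcl4, against 21.4, 23.7 and 27.9 FPKM in Col-0 at control. The groups lay well apart, with a log2 difference of −0.88 (SE 0.19, adjusted p = 0.00108, limma). AUR1, the mitotic kinase, was at 8.43, 13.4 and 12.6 FPKM in ski2 dcl4, against 18.9, 22.1 and 24.1 FPKM in Col-0. Its difference was also −0.88 (SE 0.19, adjusted p = 0.000857, limma), and its partner PFK6 was lower as well, by −0.47 (adjusted p = 0.000518, limma). KNOLLE was at 18.2, 21.9 and 26.8 FPKM in ski2 dcl4, against 36.8, 39.7 and 44.6 FPKM in Col-0, a difference of −0.84 (SE 0.2, adjusted p = 0.00208, limma). NPQ1, which overlaps KNOLLE, differed by −0.52 (adjusted p = 0.00325, limma), and its part in the KNOLLE values was not tested.

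Both CDKB2 kinases were lower. CDKB2;1 was at 19.6, 21.4 and 23.3 FPKM in ski2 dcl4, against 31.3, 34.9 and 36.1 FPKM in Col-0 at control (−0.65, SE 0.14, adjusted p = 0.000983, limma). CDKB2;2 was at 7.12, 9.24 and 9.87 FPKM, against 12.4, 15.3 and 15.0 FPKM (−0.65, SE 0.14, adjusted p = 0.00116, limma). For both kinases every ski2 dcl4 library was below every Col-0 library. Among the other cyclins, CYCB1;3 differed by −0.66 (adjusted p = 0.00364), CYCB1;4 by −0.56 (adjusted p = 0.0042) and the B2 cyclin by −0.55 (adjusted p = 0.00505), all by limma. The other two genes did not pass. CYCB1;1, the usual marker of G2 and M phase cells, which is also transcribed after DNA damage, was at 3.68, 4.16 and 5.33 FPKM in ski2 dcl4, against 6.33, 6.72 and 7.54 FPKM in Col-0 (−0.55, SE 0.22, adjusted p = 0.0521). The CDKB1 kinase, which is needed for divisions in the stomatal lineage, was at 5.09, 4.99 and 6.67 FPKM, against 7.15, 7.12 and 8.32 FPKM (−0.38, SE 0.16, adjusted p = 0.0733).

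The count stayed between 8 and 10 of 10 when any 1 library was left out, and all 10 differences stayed below 0 in every alternative run. With upper-quartile rescaling, 67.9% of the called genes of the table were higher in ski2 dcl4 at control, against 48.5% as deposited. Markers of other tissues moved as well. The summed level of 8 meristem markers was 15.6 to 21.3 FPKM in ski2 dcl4, against 21.6 to 24.6 FPKM in Col-0 at control. Of the defining ones, STM, which keeps shoot meristem cells undetermined, averaged 0.716 FPKM in ski2 dcl4, against 1.66 FPKM in Col-0 (−0.64, adjusted p = 0.000279, limma). CLV3 was listed at 0 in all 3 ski2 dcl4 libraries, against 0.143 to 0.301 FPKM in Col-0, and WUS was at 0, 0.039 and 0 FPKM in ski2 dcl4, against 0 in all 3 Col-0 libraries. These CLV3 and WUS values lie near the floor, below the 1 FPKM of the filter. The 4 leaf mesophyll markers summed to 6110 to 6460 FPKM in ski2 dcl4, against 6860 to 7940 FPKM in Col-0, with LHCB1.3 listed at 0 in all libraries. The 5 root markers summed to 33.9 to 35.3 FPKM, against 30.1 to 34.4 FPKM, and the 2 phloem markers to 85.7 to 100 FPKM, against 77.0 to 80.4 FPKM. The phloem markers went opposite ways. SUC2 averaged 79.3 FPKM in ski2 dcl4, against 64.1 FPKM in Col-0, and APL 12.1 FPKM, against 14.3 FPKM. The part of these markers in the result was not tested.

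After heat, 7 of the 10 genes were lower in ski2 dcl4 than in Col-0, against 17.2% of all genes tested. AUR1 was at 12.7, 13.7 and 7.53 FPKM in ski2 dcl4, against 18.6, 21.8 and 23.0 FPKM in Col-0 after heat. The groups did not overlap, with a log2 difference of −0.88 (adjusted p = 0.000633, limma). PFK6, which overlaps AUR1, was also lower there (−0.43, adjusted p = 0.000786, limma), and its part in the AUR1 values was not tested. CYCB1;2 was at 14.8, 15.5 and 8.79 FPKM in ski2 dcl4, against 19.0, 22.4 and 24.2 FPKM in Col-0 (−0.74, adjusted p = 0.00382). KNOLLE was at 39.1, 36.8 and 20.8 FPKM, against 42.3, 50.1 and 54.9 FPKM (−0.63, adjusted p = 0.0131). In AUR1, CYCB1;2 and KNOLLE replicate 3 of ski2 dcl4 was the lowest. The other 4 called genes were CYCB1;4 at −0.51, CDKB2;2 at −0.46, the B2 cyclin at −0.44 and CDKB2;1 at −0.40. Without replicate 3 of ski2 dcl4 heat, 2 genes were called, AUR1 (−0.63, adjusted p = 0.00889) and CYCB1;2 (−0.50, adjusted p = 0.0463), and the 10 differences ran from −0.63 to 0.01. Without replicate 3 of Col-0 heat 3 genes were called, and with the 6 libraries of the comparison alone 2 were. That low ski2 dcl4 library also had the lowest meristem marker sum of its group, 10.9 FPKM, against 17.1 and 17.5 FPKM in the others. In Col-0 after heat this sum was 14.2 to 17.2 FPKM, so the meristem sums of the groups overlapped. Leaf markers summed to 9190 to 10000 FPKM in ski2 dcl4, against 11900 to 14100 FPKM in Col-0 after heat, and root markers to 22.7 to 25.4 FPKM, against 18.5 to 20.5 FPKM, both without overlap. The root marker COBL9 went the other way, at 0.956 to 1.34 FPKM in ski2 dcl4, against 1.62 to 1.69 FPKM in Col-0. The part of these markers in the result was not tested. Among all genes, 66.7% of the called ones were higher with upper-quartile rescaling, against 56.4% as deposited.

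In ski2 dcl4 dcl2, which also carries the dcl2 label, none of the 10 genes differed from Col-0 at control by limma, and none had an unadjusted p under 0.05. Few genes of the table were called in that comparison, 1.66%. Differences ran from −0.17 to 0.13, and their 95% intervals lay between −0.56 and 0.42. KNOLLE was at 38.9, 40.5 and 38.6 FPKM in ski2 dcl4 dcl2, against 36.8, 39.7 and 44.6 FPKM in Col-0, with overlapping libraries. CYCB1;2 was at 23.2, 24.4 and 22.2 FPKM, against 21.4, 23.7 and 27.9 FPKM, again with overlap. After heat none was called either, against 5.93% of all genes. The differences ran from 0.05 to 0.40 with intervals between −0.28 and 0.70, and the B2 cyclin, at 8.24, 9.30 and 8.77 FPKM in ski2 dcl4 dcl2, against 5.51, 6.65 and 7.07 FPKM in Col-0, had the one unadjusted p under 0.05 (0.40, adjusted p = 0.103). Upper-quartile rescaling called 1 of the 10 in that comparison, and with it 91.5% of all called genes were higher, against 49.7% as deposited.

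Set directly against ski2 dcl4, ski2 dcl4 dcl2 had 8 of the 10 genes higher at control, where 15.2% of all genes were higher, and 9 of 10 after heat, where 15.6% were. These comparisons share the ski2 dcl4 libraries with those against Col-0. At control CYCB1;2 was at 23.2, 24.4 and 22.2 FPKM in ski2 dcl4 dcl2, against 10.2, 13.2 and 15.0 FPKM in ski2 dcl4 (0.83, adjusted p = 0.00256, limma). KNOLLE was at 38.9, 40.5 and 38.6 FPKM, against 18.2, 21.9 and 26.8 FPKM (0.81, adjusted p = 0.0038), and NPQ1 was also higher (0.44, adjusted p = 0.0132). CYCB2;3 was at 11.5, 11.2 and 11.2 FPKM, against 6.33, 6.21 and 7.62 FPKM (0.67, adjusted p = 0.00128). The libraries of ski2 dcl4 dcl2 were close to each other and above all those of ski2 dcl4 in these genes. AUR1 was higher by 0.71, the CDKB2 kinases by 0.56 and 0.48, CYCB1;3 by 0.57 and CYCB1;4 by 0.44. PFK6, which overlaps AUR1, was also higher (0.36, adjusted p = 0.00658, limma), and its part in the AUR1 values was not tested. CYCB1;1 (0.52, adjusted p = 0.0802) and the CDKB1 kinase (0.24, adjusted p = 0.288) did not pass. Without replicate 1 of ski2 dcl4 control, 4 genes were called.

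After heat the difference between these genotypes reached 1.02 for CYCB1;2 (adjusted p = 0.000267), 1.00 for AUR1 (adjusted p = 0.000231), 0.86 for KNOLLE (adjusted p = 0.00161) and 0.85 for the B2 cyclin (adjusted p = 8.22e-05), all by limma. AUR1 was at 23.3, 24.3 and 21.5 FPKM in ski2 dcl4 dcl2, against 12.7, 13.7 and 7.53 FPKM in ski2 dcl4. PFK6 was not called in that comparison (0.2, adjusted p = 0.108, limma). CYCB1;1 passed here (0.57, adjusted p = 0.0408), but not with the replicate block (adjusted p = 0.052), a pseudocount of 0.1 (0.0506) or no filter (0.0588), nor without replicate 1 or 3 of ski2 dcl4 heat or any 1 of the ski2 dcl4 dcl2 heat libraries (0.0647 to 0.218), and the CDKB1 kinase did not (0.22, adjusted p = 0.298). Without replicate 3 of ski2 dcl4 heat 8 genes were called and the differences ran from 0.04 to 0.78. Meristem markers summed to 22.4 to 23.3 FPKM in ski2 dcl4 dcl2, against 15.6 to 21.3 FPKM in ski2 dcl4, at control, and to 18.3 to 20.9 FPKM, against 10.9 to 17.5 FPKM, after heat. Leaf markers summed to 7420 to 7740 FPKM, against 6110 to 6460 FPKM, at control and to 11200 to 11500 FPKM, against 9190 to 10000 FPKM, after heat. Their part in these results was not tested.

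**Figure D2:**
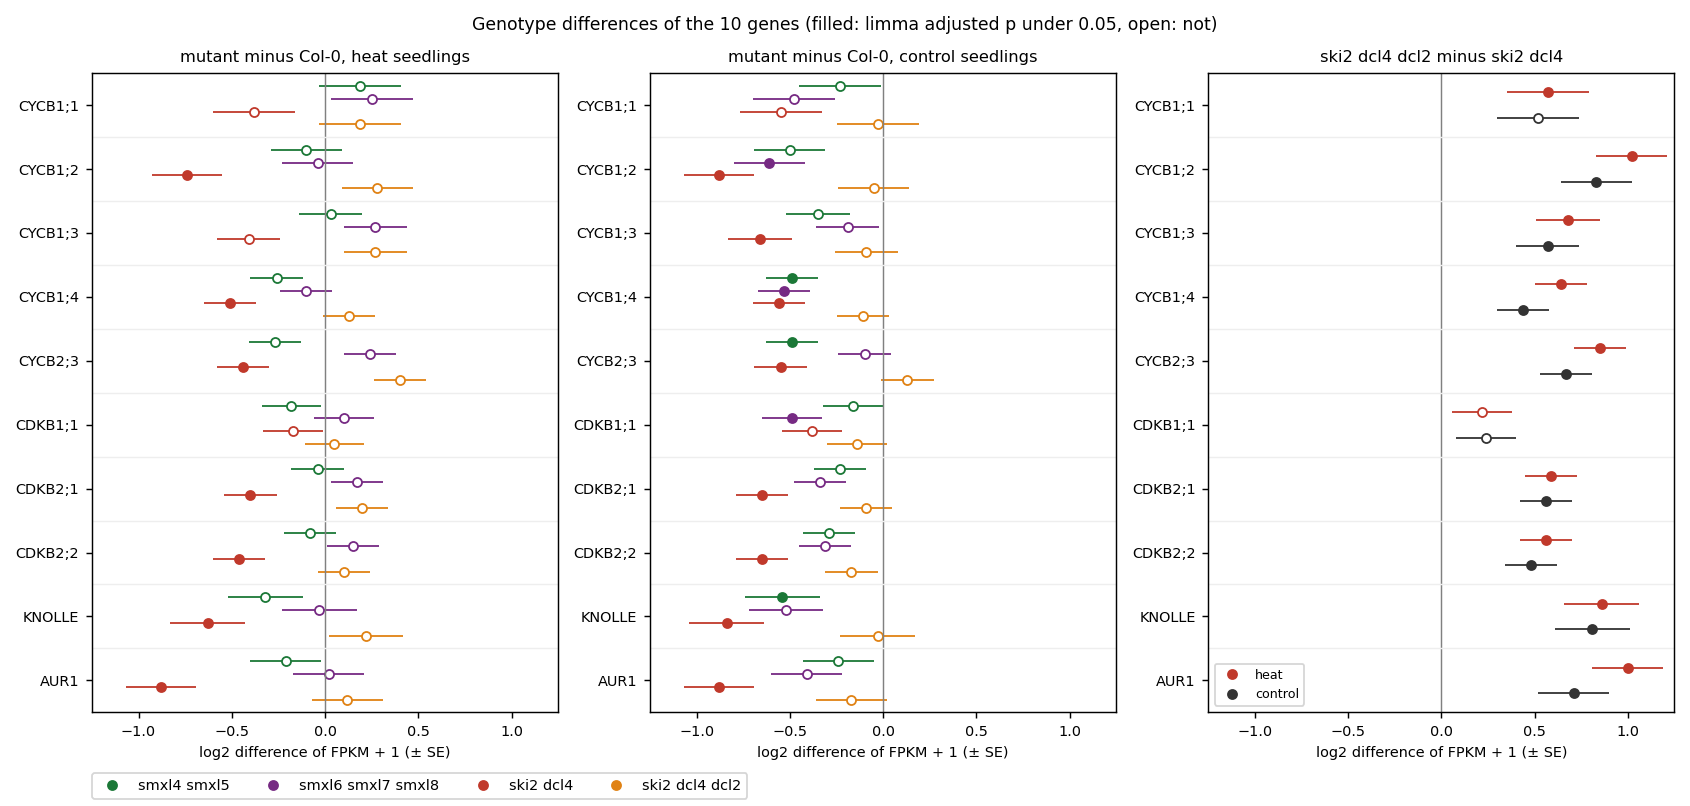
Log2 difference of each gene from Col-0, on the log2(FPKM + 1) scale, in each mutant after heat and at control. Bars are ± SE from limma. Filled points passed an adjusted p under 0.05. In ski2 dcl4 at control all 10 lie between −0.88 and −0.38, and in ski2 dcl4 dcl2 at control all lie between −0.17 and 0.13.

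Other genes of the cell cycle were taken from lists by role, of genes whose names could be matched. At control in ski2 dcl4 against Col-0, 17.1% of all genes were called lower. All 9 spindle, kinetochore and checkpoint genes tested were lower there, with a median of −0.72. TPX2, which nucleates spindle microtubules, was at 9.21 FPKM in ski2 dcl4, against 17.4 FPKM in Col-0 (−0.87, adjusted p = 0.00118, limma), and BUBR1, a checkpoint kinase, at 4.57 FPKM, against 9.0 FPKM (−0.85, adjusted p = 0.00116). Of 17 other cytokinesis genes, 12 were lower and none higher (median −0.50), among them the kinesin HIK, which guides cell plate expansion (6.52 FPKM against 12.7 FPKM in Col-0), and PLE, which bundles microtubules of the phragmoplast (5.57 FPKM against 11.0 FPKM). Of 5 other B-type cyclins and CDKB genes, 4 were lower, with a median of −0.63. Of 6 activators and subunits of the anaphase-promoting complex 4 were lower, with CDC20.1 at −0.84 (adjusted p = 0.00815) and CDC20.2 at −0.75 (adjusted p = 0.0038). Of the 4 MYB3R genes tested, the activator MYB3R4 was lower (3.44 FPKM against 5.79 FPKM in Col-0, −0.62, adjusted p = 0.00158, limma), and MYB3R1 was at 8.53 FPKM, against 8.37 FPKM. The repressor MYB3R3 averaged 4.02 FPKM, against 3.52 FPKM in Col-0, and the repressor MYB3R5 2.03 FPKM, against 1.87 FPKM. The MYB3R count, 1 of 4, is near the share over all genes. Leaving out 1 library, the spindle count was 8 or 9 and the MYB3R count 1, and the cytokinesis count fell to 7 without replicate 1 of ski2 dcl4 control.

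Genes of earlier phases were also lower in ski2 dcl4 at control, where 17.1% of all genes were called lower and 16.1% higher. Of 17 S-phase and E2F genes 12 were lower and none higher (median −0.48), among them the replication clamp PCNA1 (−0.90, adjusted p = 0.000683, limma) and the helicase subunit MCM7 (−0.69, adjusted p = 0.00231). Of 10 A-type cyclins and CDKA 7 were lower (median −0.46). Of 9 D-type cyclins, which couple growth signals to the start of the cycle, 4 were lower (median −0.21), and 1 was higher, which was lost without replicate 1 or 2 of either genotype. Among 11 inhibitors of the cycle, 1 was higher and 1 lower, both below the share over all genes. KRP1 was higher (0.36, adjusted p = 0.0408) and WEE1, an inhibitory kinase, lower (−0.35, adjusted p = 0.0277). Without replicate 1 of ski2 dcl4 control, the S-phase count was 7 and the A-type count 4. Of the inhibitors, 0 were called in either direction without replicate 1 or 3 of ski2 dcl4 control or replicate 3 of Col-0 control. Without replicate 2 of Col-0 control 0 were called higher, and without replicate 2 of ski2 dcl4 control 2 were higher and 2 lower.

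In ski2 dcl4 dcl2 none of the genes of these cell cycle lists was called against Col-0 at control, where only 1.66% of all genes were called. Against ski2 dcl4 at control, where 15.2% of all genes were higher, all 9 spindle genes, 12 of 17 cytokinesis genes, 4 of 5 other B-type cyclins and CDKB genes and 4 of 6 genes of the anaphase-promoting complex were higher, and none was lower. Of the S-phase genes 5 of 17 were higher (median 0.31) and of the A-type cyclins 4 of 10 (median 0.35). MYB3R4 was at 5.35 FPKM in ski2 dcl4 dcl2, against 3.44 FPKM in ski2 dcl4 (0.52, adjusted p = 0.00776, limma). Without replicate 1 of ski2 dcl4 control these counts were 3 spindle genes, 4 cytokinesis genes, 1 other B-type gene, 2 genes of the anaphase-promoting complex, 0 S-phase genes, 2 A-type cyclins and 0 MYB3R genes. Without replicate 2 of ski2 dcl4 dcl2 control, 7 cytokinesis genes, 1 other B-type gene and 3 S-phase genes were called, and without its replicate 3, 2 other B-type genes. After heat, ski2 dcl4 had 8 of 9 spindle genes and 10 of 17 cytokinesis genes lower than Col-0, against 17.2% of all genes. Without replicate 3 of ski2 dcl4 heat, 3 spindle genes and 3 cytokinesis genes were lower, and without replicate 3 of Col-0 heat 5 spindle genes were. The count for the anaphase-promoting complex was 4 after heat with all libraries and with any 1 left out.

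**Figure D3:**
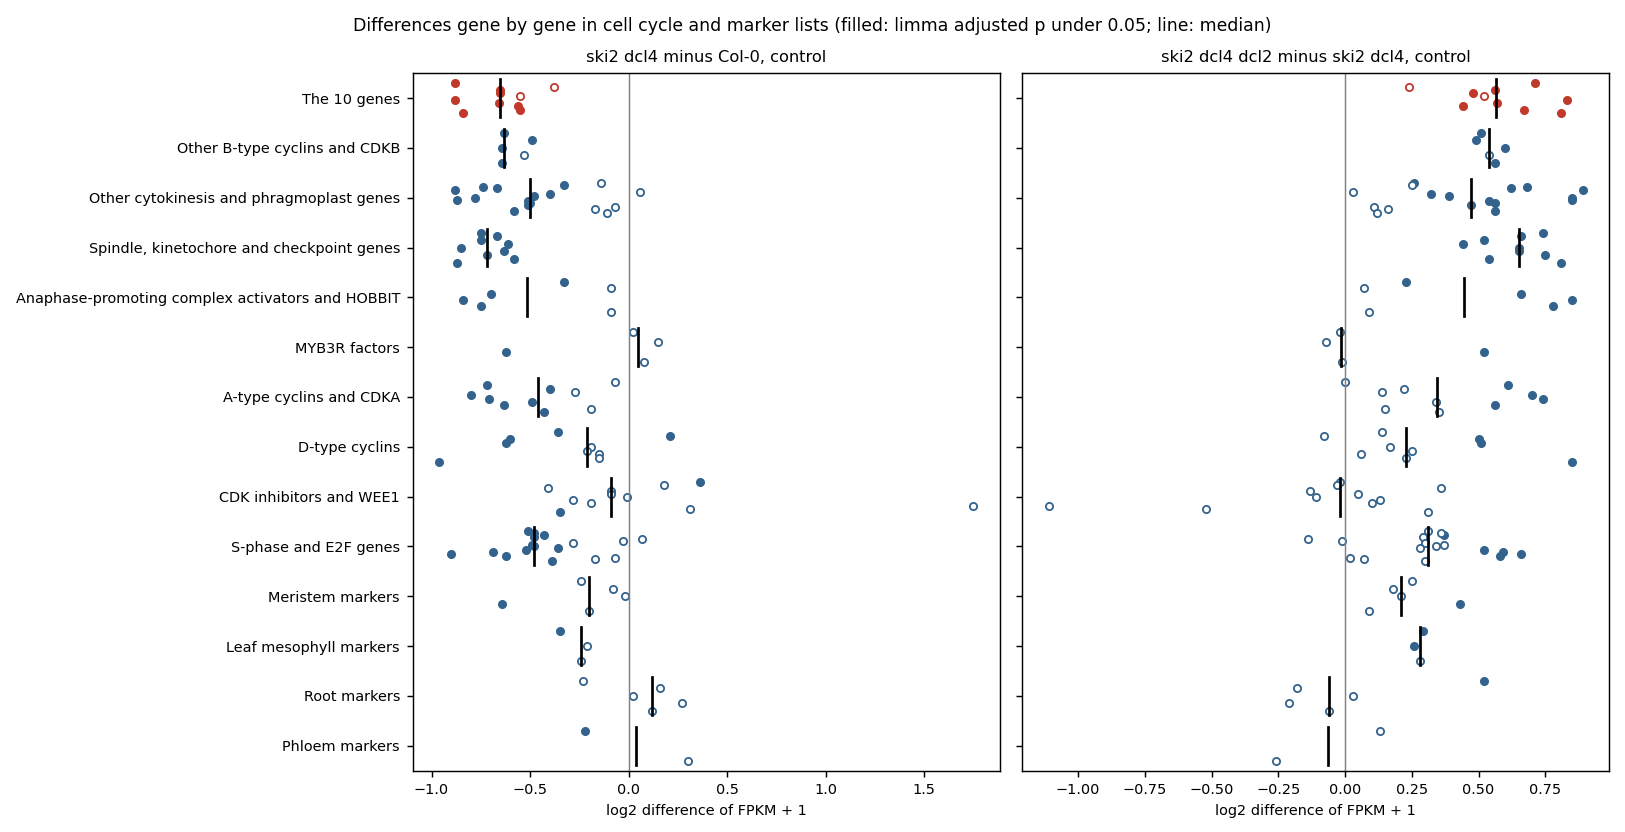
Log2 differences, on the log2(FPKM + 1) scale, of the genes of each cell cycle list in ski2 dcl4 and ski2 dcl4 dcl2 comparisons. Points are genes and bars are list medians. In ski2 dcl4 against Col-0 at control the spindle list has a median of −0.72 and the D-type cyclins one of −0.21.

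The libraries labelled smxl4 smxl5 had 3 of the 10 genes lower than Col-0 at control, against 14.8% of all genes. KNOLLE was at 23.8, 31.0 and 27.7 FPKM in smxl4 smxl5, against 36.8, 39.7 and 44.6 FPKM in Col-0 (−0.54, SE 0.2, adjusted p = 0.0419, limma). That call was lost with the replicate block (adjusted p = 0.0534), without the filter (0.0622) and with upper-quartile rescaling (0.0626). NPQ1 differed by −1.39 (adjusted p = 3.78e-08), with 20.3 FPKM in smxl4 smxl5, against 55.0 FPKM in Col-0, and its part in the KNOLLE values was not tested. CYCB1;4 was at 5.28, 6.42 and 7.26 FPKM, against 8.53, 9.69 and 9.42 FPKM, and the B2 cyclin at 6.39, 6.99 and 7.63 FPKM, against 8.47, 11.2 and 11.3 FPKM. Both differed by −0.49 (adjusted p = 0.012 and 0.0116), and the libraries of the groups did not overlap in any of these genes. All 10 differences were below 0, between −0.54 and −0.16. Leaving out replicate 1 of smxl4 smxl5 control left 0 genes called, leaving out replicate 2 or 3 of Col-0 control left 1, and the 6 libraries of the comparison alone gave 6. Phloem markers summed to 47.5 to 48.8 FPKM in smxl4 smxl5, against 77.0 to 80.4 FPKM in Col-0 at control, and leaf markers to 7970 to 8590 FPKM, against 6860 to 7940 FPKM. Neither sum overlapped between the groups. Of the leaf markers, RCA (4430 FPKM in smxl4 smxl5, against 2980 FPKM in Col-0) and GAPA (793 against 648 FPKM) were higher. PSBO1 was lower (3130 against 3750 FPKM). The part of these markers in the result was not tested. After heat none was called by limma, against 36.3% of all genes, none had an unadjusted p under 0.05, and differences ran from −0.32 to 0.19.

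In smxl6 smxl7 smxl8 at control 3 genes were lower than in Col-0, against 13.2% of all genes, and 0 were called without the low replicate 2 described above. CYCB1;2 was at 17.4, 10.1 and 20.8 FPKM in smxl6 smxl7 smxl8, against 21.4, 23.7 and 27.9 FPKM in Col-0 (−0.61, adjusted p = 0.0212, limma). The CDKB1 kinase was at 6.08, 3.46 and 6.08 FPKM, against 7.15, 7.12 and 8.32 FPKM (−0.49, adjusted p = 0.0275). CYCB1;4 was at 6.78, 4.22 and 7.63 FPKM, against 8.53, 9.69 and 9.42 FPKM (−0.53, adjusted p = 0.00773). Replicate 2 was the lowest in each of them. Without it 0 genes were called and differences ran from −0.33 to 0.12. Without replicate 3 of Col-0 control 1 was called, without replicate 3 of smxl6 smxl7 smxl8 control 7 were, and with the 6 libraries alone 0 were. Replicate 2 also had 14.7 FPKM of summed meristem markers, against 21.5 and 22.2 FPKM in the others, and 11300 FPKM of leaf markers, against 7920 and 8470 FPKM, and their part in the result was not tested. After heat none was called by limma, against 23.8% of all genes, none had an unadjusted p under 0.05, and differences ran from −0.10 to 0.27.

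The smxl genotypes were also set against each other. At control no gene differed by limma between smxl4 smxl5 and smxl6 smxl7 smxl8, where 18.2% of all genes were called, and 1 had an unadjusted p under 0.05. Without replicate 2 of smxl6 smxl7 smxl8, the B2 cyclin CYCB2;3 was lower in smxl4 smxl5 (−0.61, adjusted p = 0.00225). After heat, it was the 1 gene of the 10 called, and 9.98% of all genes were called lower. It was at 5.01, 5.32 and 5.00 FPKM in smxl4 smxl5, against 7.39, 7.71 and 7.99 FPKM in smxl6 smxl7 smxl8 (−0.51, SE 0.14, adjusted p = 0.0129). The groups lay far apart for their spread. Phloem markers summed to 29.1 to 39.2 FPKM in smxl4 smxl5, against 47.2 to 56.2 FPKM in smxl6 smxl7 smxl8 after heat, and their part in the result was not tested.

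Few of the 10 genes were called for heat, with the B2 cyclin CYCB2;3 lower and KNOLLE and CYCB1;1 higher in some genotypes. A gene that was not called is not shown to be unchanged. In smxl4 smxl5 3 of the 10 were called, against 53.9% of all genes (29.9% higher, 24% lower), and in smxl6 smxl7 smxl8 4, against 52.9% (28.7% higher). In ski2 dcl4 2 were called, against 55.6% (32% higher, 23.6% lower), in ski2 dcl4 dcl2 1, against 50.1% (25.8% higher), and in Col-0 1, against 57.2% (27.3% lower). The 1 gene called in Col-0 was CYCB2;3. It was at 5.51, 6.65 and 7.07 FPKM after heat, against 8.47, 11.2 and 11.3 FPKM at control (−0.61, SE 0.14, adjusted p = 0.000939, limma). The groups did not overlap. It was also lower after heat in ski2 dcl4, at 5.22, 4.79 and 3.43 FPKM after heat, against 6.33, 6.21 and 7.62 FPKM at control (−0.50, adjusted p = 0.00478). In smxl4 smxl5 it was at 5.01, 5.32 and 5.00 FPKM after heat, against 6.39, 6.99 and 7.63 FPKM at control (−0.39, adjusted p = 0.0267). In ski2 dcl4 dcl2 (−0.33, adjusted p = 0.0598) and smxl6 smxl7 smxl8 (−0.28, adjusted p = 0.113) it did not pass. Without replicate 2 of smxl6 smxl7 smxl8 control the value there was −0.49 (adjusted p = 0.0027).

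KNOLLE was higher after heat in 4 of the 5 genotypes by limma on the deposited scale. With upper-quartile rescaling it was called in 1, smxl6 smxl7 smxl8, and did not pass in smxl4 smxl5 (0.35, adjusted p = 0.157), ski2 dcl4 (0.34, adjusted p = 0.162) or ski2 dcl4 dcl2 (0.47, adjusted p = 0.0583). Summed FPKM was higher in heat libraries, as given above. In smxl6 smxl7 smxl8 it was at 52.9, 48.5 and 42.4 FPKM after heat, against 30.7, 19.3 and 36.2 FPKM at control (0.76, SE 0.2, adjusted p = 0.00248). In ski2 dcl4 dcl2 it was at 52.4, 56.9 and 62.7 FPKM, against 38.9, 40.5 and 38.6 FPKM (0.53, adjusted p = 0.0296). In both the groups did not overlap. In smxl4 smxl5 it was at 40.0, 41.3 and 35.8 FPKM, against 23.8, 31.0 and 27.7 FPKM (0.49, adjusted p = 0.0385), and NPQ1 was also higher after heat there (0.47, adjusted p = 0.00369), with its part in the KNOLLE values not tested. In ski2 dcl4 it was at 39.1, 36.8 and 20.8 FPKM, against 18.2, 21.9 and 26.8 FPKM (0.48, adjusted p = 0.0427). There the groups overlapped through the low heat replicate 3, and without it the value was 0.76 (adjusted p = 0.00137). In Col-0 it was at 42.3, 50.1 and 54.9 FPKM after heat, against 36.8, 39.7 and 44.6 FPKM at control, with overlap (0.27, adjusted p = 0.248).

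CYCB1;1 was higher after heat in smxl6 smxl7 smxl8, at 10.1, 9.98 and 8.10 FPKM after heat, against 5.66, 2.41 and 6.90 FPKM at control (0.88, SE 0.22, adjusted p = 0.00162, limma). In smxl4 smxl5 it was at 9.50, 9.81 and 7.69 FPKM, against 5.16, 6.39 and 5.56 FPKM (0.57, SE 0.22, adjusted p = 0.0286). In neither did the groups overlap. Fewer of the 10 genes were called for heat in smxl4 smxl5 with upper-quartile rescaling, as given at the end. In Col-0 CYCB1;1 was at 5.66, 9.45 and 8.55 FPKM, against 6.33, 6.72 and 7.54 FPKM, with overlap. The CDKB1 kinase (0.52, adjusted p = 0.0088) and CYCB1;4 (0.52, adjusted p = 0.00357) were higher after heat in smxl6 smxl7 smxl8, where CYCB1;4 was at 9.65, 8.99 and 8.79 FPKM after heat, against 6.78, 4.22 and 7.63 FPKM at control. Without control replicate 2 there, CYCB1;1 (0.51), KNOLLE (0.50) and CYCB1;4 (0.31, adjusted p = 0.0458) were called higher, CYCB2;3 lower, and the CDKB1 kinase was not called. Both CDKB2 kinases, AUR1, CYCB1;2 and CYCB1;3 were called in none of the 5 genotypes. With upper-quartile rescaling the CDKB2 kinases were lower after heat in Col-0, CDKB2;2 by −0.41 (adjusted p = 0.0233) and CDKB2;1 by −0.36 (adjusted p = 0.045).

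These counts were small and sensitive to single libraries. In ski2 dcl4 dcl2 the 1 call, KNOLLE, was lost without heat replicate 2 or 3 or without any 1 of the 3 control replicates. In smxl4 smxl5 the count of 3 went to 0 without heat replicate 1 and to 1 without heat replicate 2, control replicate 1 or control replicate 3. In ski2 dcl4 the count of 2 went to 1 without heat replicate 1 or 2 or control replicate 1 or 2. In smxl6 smxl7 smxl8 it was 8 without control replicate 3, and in Col-0 it was 2 without heat replicate 3 or control replicate 1. Upper-quartile rescaling moved the median of all genes by −0.11 in ski2 dcl4 and −0.10 in smxl4 smxl5. With it, 42.4% of called genes were higher after heat in ski2 dcl4, against 57.5% as deposited, and 40.0% in smxl4 smxl5, against 55.5%.

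**Figure D4:**
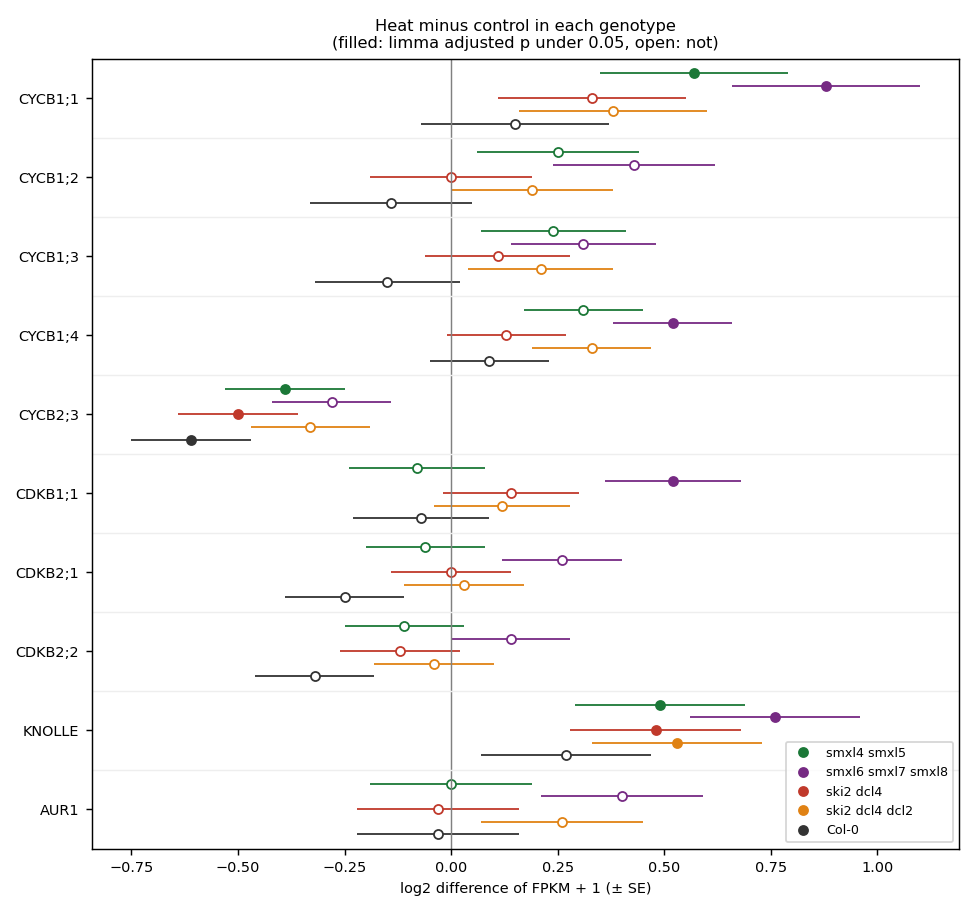
Log2 difference of heat over control, on the log2(FPKM + 1) scale, for each gene in each genotype. Bars are ± SE from limma. Filled points passed an adjusted p under 0.05. CYCB2;3 lies below 0 in all 5 genotypes, from −0.61 in Col-0 to −0.28 in smxl6 smxl7 smxl8, and KNOLLE lies above 0, from 0.27 in Col-0 to 0.76 in smxl6 smxl7 smxl8.

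Other genes of the cycle were also set after heat against control in Col-0, where 29.9% of all genes were called higher and 27.3% lower. Of 9 D-type cyclins 7 were lower and 1 higher, with CYCD6;1 at 3.41 FPKM after heat, against 7.64 FPKM at control (−0.99, adjusted p = 0.000188, limma). Of 10 A-type cyclins and CDKA 6 were lower, and of 17 S-phase genes 7 were lower, with the replication licensing factor CDT1A at 2.91 FPKM, against 8.15 FPKM (−1.23, adjusted p = 2.78e-07). Of 5 other B-type cyclins and CDKB genes 2 were lower, CYCB2;2 (−0.71) and CYCB2;1 (−0.54), which are B2 cyclins too. MYB3R1 was lower (4.98 FPKM against 8.37 FPKM, −0.65, adjusted p = 2.57e-07). Of 11 inhibitors 3 were higher and 5 lower, with SMR5, an inhibitor made under stress, at 12.4 FPKM, against 2.39 FPKM (2.18, adjusted p = 0.0209). Without replicate 1 of Col-0 heat, 1 inhibitor was higher and 3 were lower. Root markers summed to 18.5 to 20.5 FPKM after heat in Col-0, against 30.1 to 34.4 FPKM at control, and meristem markers to 14.2 to 17.2 FPKM, against 21.6 to 24.6 FPKM. Leaf markers summed to 11900 to 14100 FPKM, against 6860 to 7940 FPKM. Over the 4 mutants, root markers summed to 20.5 to 25.4 FPKM after heat, against 30.4 to 36.9 FPKM at control, and leaf markers to 9190 to 14400 FPKM, against 6110 to 11300 FPKM. The root markers did not all go the same way. SCR, SHR and COBL9 had lower means after heat in every genotype, with SCR in Col-0 at 7.64 FPKM, against 15.5 FPKM. WER had higher means in every genotype, in Col-0 2.96 FPKM, against 2.73 FPKM, with overlap. RHD6 averaged lower in Col-0, ski2 dcl4 and ski2 dcl4 dcl2 and higher in smxl4 smxl5 and smxl6 smxl7 smxl8. The part of these markers in the heat results was not tested.

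Whether heat acted differently in a mutant than in Col-0 was tested as an interaction, and none of the 10 genes passed in any of the 4 mutants by limma. All genes called were 2.08% for smxl4 smxl5, 5.29% for smxl6 smxl7 smxl8, 0.372% for ski2 dcl4 and 0.0464% for ski2 dcl4 dcl2. Unadjusted p-values under 0.05 numbered 6 of the 10 for smxl6 smxl7 smxl8 and 0 for the others. In smxl6 smxl7 smxl8 all 10 interactions were above 0, from 0.33 to 0.72, with adjusted p from 0.127 to 0.342. Without control replicate 2 they ran from 0.12 to 0.37, and without control replicate 3, 2 genes were called. The heat differences given above are therefore not shown to differ between Col-0 and the mutants.

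The 10 genes moved together from library to library. The correlation of their deviations from group means over the 30 libraries was positive in all 45 pairs, from 0.70 to 0.96 with a median of 0.85. These points share a library and its scaling, so the values are descriptive. Over the 10 group means, correlations ran from −0.03 to 0.97 with a median of 0.78, and the lowest was between CYCB1;1 and CYCB2;3. All 10 genes lay below their group mean in replicate 1 of Col-0 heat (−0.22 on average), ski2 dcl4 control (−0.19), smxl4 smxl5 control (−0.14) and Col-0 control (−0.13), besides the libraries named above.

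**Figure D5:**
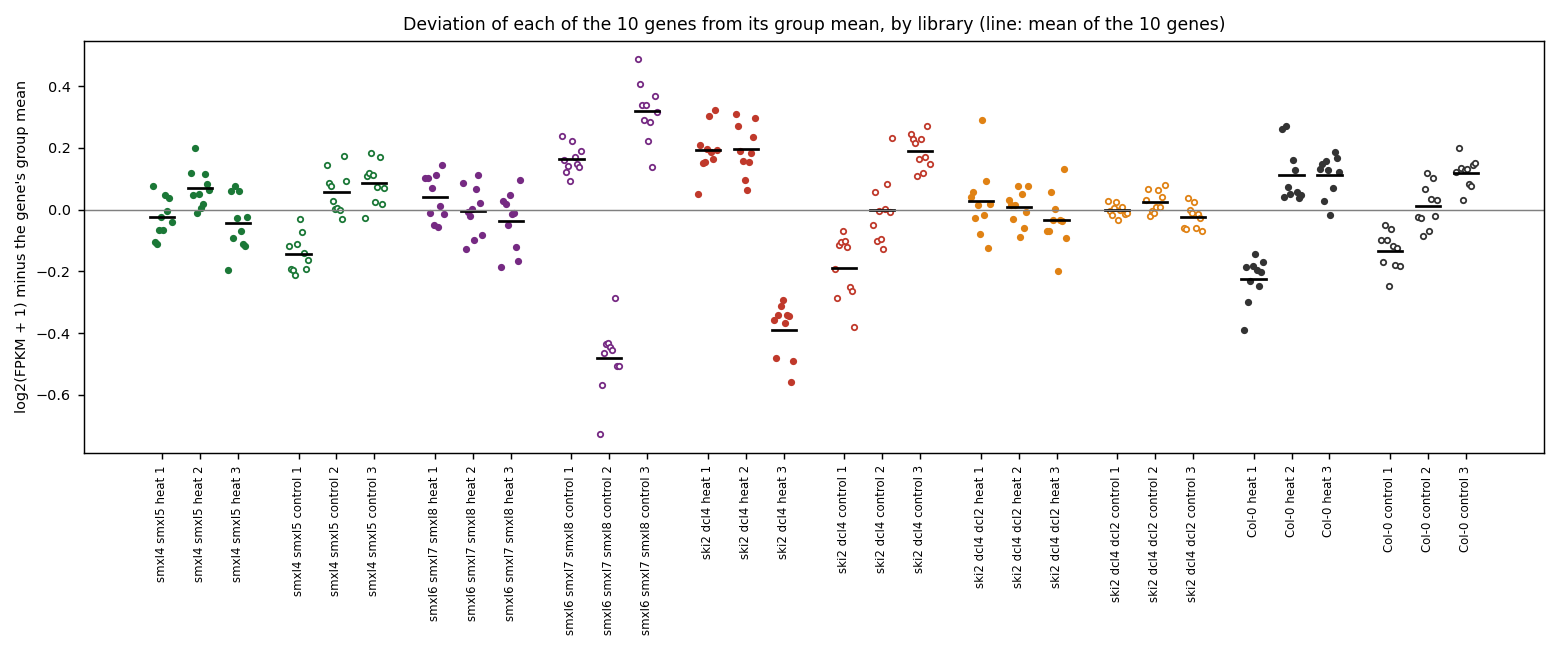
Deviation of each gene from its group mean in every library, on the log2(FPKM + 1) scale, by group. Points are genes and bars are the mean over the 10 genes. Replicate 2 of smxl6 smxl7 smxl8 control and replicate 3 of ski2 dcl4 heat lie lowest, at −0.48 and −0.39 on average.

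Among 17754 genes that averaged 2 FPKM or more, those whose values over the 30 libraries followed the mean of the 10 genes most closely were named by Pearson's r, again as a description. They were the spindle gene TPX2 (0.975), AT4G09060 (0.970), ROPGEF6 (0.969), AT3G15550 (0.967), AT5G60930 (0.962), the endosperm and microtubule gene EDE1 (0.960), HIK (0.959) and AT5G15510 (0.958). ROPGEF6, an activator of ROP GTPases, averaged 4.09 FPKM in ski2 dcl4 and 7.47 FPKM in ski2 dcl4 dcl2, against 8.33 FPKM in Col-0 at control. AT3G15550 averaged 6.07 FPKM in ski2 dcl4 and 11.2 FPKM in ski2 dcl4 dcl2, against 11.2 FPKM in Col-0.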

How the data were processed

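The authors deposited 1 table with 1 FPKM value per gene and library, read as FPKM from its values, and the submitters' processing notes name Bowtie. The authors' counter, genome build, annotation and strand setting were not given in the sources used here. Values were transformed as log2(FPKM + 1), with at least 1 FPKM required in at least 3 libraries (21531 of 38088 genes). The limma models (3.58.1, R 4.3.3) gave 1 mean per group to the 30 libraries, with an intensity trend and Benjamini-Hochberg adjustment over all genes in each of 21 comparisons. A gene was called where its adjusted p was below 0.05. Scripts were tested on simulated data. Python 3.11.15, numpy 2.4.6, pandas 2.3.3 and scipy 1.17.1 made the tables. No source says whether the libraries of 1 group are separate cultures, so the p-values cover the spread among these libraries only, which may be technical.

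Depth was estimated from the lowest values of 1884 rarely detected genes, and it sets counting error only. All 10 genes were named in every comparison. From each of 15 other lists (123 entries, 5 left out for unmatched names), up to 2 called genes with the largest change and at least 2 FPKM in the higher group were open to naming. STM, CLV3, WUS, MYB3R1, MYB3R3, MYB3R5, the mutated genes and the overlap partners fall outside that rule and were chosen after their values were seen. The root markers named singly for heat were chosen so as well. The 10 genes and the lists were chosen with earlier results of these data known. Promoters are from RefSeq TAIR10.1. Alternatives were a pseudocount of 0.1, no filter, upper-quartile rescaling, the compared groups alone, a replicate block and leaving out each library.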

Additional observations from a re-analysis of the deposited data

How the results depend on the processing

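Counts of called genes among the 10 are those of limma, and no difference changed sign past the threshold in any alternative. Without the filter, heat in ski2 dcl4 gave 1 call, against 2 in the report. Upper-quartile rescaling gave 1 for heat in smxl4 smxl5, 1 for heat in ski2 dcl4, 3 for heat in Col-0 and 1 for ski2 dcl4 dcl2 against Col-0 after heat. With the compared groups alone, heat gave 1 call in ski2 dcl4, 7 in ski2 dcl4 dcl2 and 1 in smxl6 smxl7 smxl8. Against Col-0 it gave 6 for smxl4 smxl5 at control, 0 for smxl6 smxl7 smxl8 at control and 2 for ski2 dcl4 after heat. That setting has fewer libraries to estimate the spread. Otherwise the cause was not tested. The labels number replicates alike across groups, but same-numbered libraries did not deviate together (0 of 17 comparisons had all correlations over 0.1, range −0.20 to 0.21). A replicate block gave 1 call for heat in ski2 dcl4 (KNOLLE adjusted p = 0.0533) and changed 3 of 210 single-gene calls in all, the others being KNOLLE in smxl4 smxl5 against Col-0 at control (0.0534) and CYCB1;1 in ski2 dcl4 dcl2 against ski2 dcl4 after heat (0.052). A pseudocount of 0.1 changed 1 of 210.

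Leaving out 1 library at a time, counts ran from 0 to 2 for heat in smxl4 smxl5 (3 with all), 1 to 2 in Col-0, 4 to 8 in smxl6 smxl7 smxl8, 0 to 1 in ski2 dcl4 dcl2 and 1 to 2 in ski2 dcl4. Against Col-0 at control they ran from 8 to 10 for ski2 dcl4, 0 to 7 for smxl6 smxl7 smxl8 and 0 to 3 for smxl4 smxl5, and after heat from 2 to 8 for ski2 dcl4. They ran from 4 to 8 at control and 8 to 9 after heat for ski2 dcl4 dcl2 against ski2 dcl4, 0 to 1 and 1 to 1 for smxl4 smxl5 against smxl6 smxl7 smxl8, and 0 to 2 for the smxl6 smxl7 smxl8 interaction. Of 1500 such single-gene values, 59 lost the call and 20 gained it. The lowest estimated depth, 64.9 reads for CYCB1;1, limits that gene most, with a counting error of 12.4% there.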
